A study of Drosophila melanogaster with 2 samples.

Results

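The eye specification and cone cell genes examined here are the 10 genes svp, ro, eya, so, ey, toy, dac, gl, sev and sv of the Ensembl BDGP6 annotation, out of 13968 protein-coding genes. They were listed by name for their roles in eye development, and all 10 were found in the annotation. The data are ChIP-seq (chromatin immunoprecipitation sequencing) peak lists from entire Drosophila melanogaster embryos of the strain Bgb-GFP, aged 0 to 24 h, in 2 biological replicates of 1 group. The flies carried a transgene for Bgb fused to eGFP, and the labels name an antibody against GFP in one place and Bgb in another. Bgb (Big brother) is a fly homolog of CBF-beta, which binds no DNA itself and joins Runt domain transcription factors. No second genotype or treatment was compared, and control libraries were not analysed here. Each value is the signal that the authors' peak caller gave to a peak, with no stated scaling between libraries, and read depth is unknown.

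The fly eye is specified by a network of transcription factors. The Pax proteins Toy and Ey act at its top, and So, Eya and Dac act below them and feed back on one another. Behind the moving furrow of the eye disc, photoreceptors and cone cells are then set apart by local signals read together with the Runt domain protein Lozenge, encoded by lz. Lozenge is known to be needed for sv in cone cells and to limit svp in some photoreceptor precursors. The compound eye forms in larvae and pupae. Embryos hold its primordium, the larval eye and other tissues that use the same genes, such as brain, gonad and heart. In whole embryos, a low signal from binding in few cells cannot be told apart from a low signal from weak binding in many.

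Each gene's window ran from its end to 2 kb before its start, and any summit inside was counted for it. There were 4 thresholded lists, namely the conservative list and a second list of the series and a list for each replicate. All were cut by the irreproducible discovery rate (IDR), an estimate of the share of peaks at a given rank or better that would fail to recur between 2 rankings, and their lowest score corresponds to an IDR of 1.00%. What the second list compared is not given in the sources used here. Merging overlapping peaks of all 4 lists gave 13 regions in the windows of 8 genes. The windows of gl and sev held none.

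Sequences of 101 bp around the strongest summit are shown for ey, toy, svp and eya, members that had a thresholded peak nearest to their own start. They are on the plus strand of dm6, read from the RefSeq copy of the same assembly. Capitals mark CGATA on either strand, the core of a sequence that was frequent at summits of the whole list. The ey and toy windows hold it, and the svp and eya windows do not. Neither do windows of this size at the so regions 714 and 61 bp upstream of its start.

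ey, chr4:696887-696987: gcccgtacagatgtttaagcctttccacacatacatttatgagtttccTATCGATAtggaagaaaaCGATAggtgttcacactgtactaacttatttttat

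toy, chr4:989559-989659: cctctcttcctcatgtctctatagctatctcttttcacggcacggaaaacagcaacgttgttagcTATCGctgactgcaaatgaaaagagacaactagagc

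svp, chr3R:12280942-12281042: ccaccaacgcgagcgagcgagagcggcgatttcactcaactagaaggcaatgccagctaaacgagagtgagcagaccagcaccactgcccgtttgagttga

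eya, chr2L:6536207-6536307: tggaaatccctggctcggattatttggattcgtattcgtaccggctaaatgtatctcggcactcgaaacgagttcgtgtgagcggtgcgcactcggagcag

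Of the 10 genes, 5 had a conservative peak (svp, ro, eya, toy and dac), beside 37.4% of all protein-coding genes. The eye genes lie in long windows, from 6.401 kb at ro to 46.049 kb at svp, and among all genes with a window at least as long as that of ro the share was 53.0%. The peak was nearest to the gene's own start in 3 of them (svp, eya and toy), beside 25.6% of all genes, and to the start of a neighbour at ro and dac. By that stricter count the second series list had 5 members, beside 32.3%, replicate 1 had 4, beside 31.0%, and replicate 2 had 1, svp, beside 19.4%. These own-start shares cover genes of every window length, and none was computed for genes with long windows. The second series list had a peak in 7 windows, adding so and ey, beside 45.2% of all genes and 64.2% of those with windows as long. The list of replicate 1 alone also had a peak in 7, with sv in place of toy, beside 43.7% of all genes and 62.0% of those with long windows. The list of replicate 2 alone had one in only 2, svp and ro, beside 29.5%. With 10 members, 1 gene is 10 percentage points. The members' share was within 1 gene of that of long-window genes in the conservative list (50% beside 53.0%), the second series list (70% beside 64.2%) and replicate 1 (70% beside 62.0%), and about 2 genes below it in replicate 2 (20% beside 40.9%). These long-window genes were not matched to the members in length. Their lower limit was the shortest member window, 6.401 kb, while the median member window was 20.8 kb. No test was made of these shares, since a list of 10 chosen genes is not a sample.

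**Figure D1:**
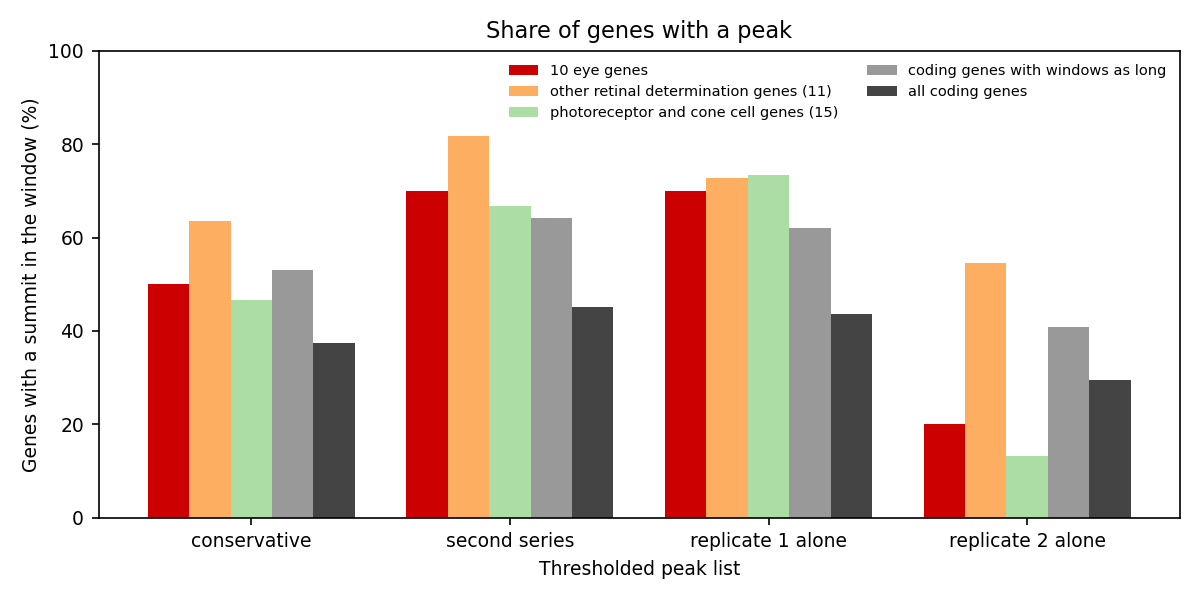
Percent of genes with a summit in the window (y axis) in each thresholded list (x axis), for the 10 eye genes, 2 lists of other eye genes, coding genes with windows at least as long as the shortest of the 10, and all coding genes. The eye genes stand at 50%, 70%, 70% and 20%, beside 37.4%, 45.2%, 43.7% and 29.5% of all coding genes.

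Among the Pax genes at the top of the network, ey had the strongest single peak of the 10 windows, and of the replicate lists only that of replicate 1 held it. The gene (FBgn0005558, chromosome 4, 697689 to 721173, plus strand) encodes Eyeless, which can direct eye formation when expressed elsewhere. Its peak at 696778 to 697067 lay 752 bp upstream of the first start, outside any annotated gene. The signal was 705 in the second series list, rank 149 of 6393, and 415 in replicate 1. The ranked list of replicate 2 had no entry there even without a threshold. Its nearest summit was 650 bp away, with a signal of 19.1. The peak is in neither the conservative list nor its unthresholded ranked counterpart. Of the 6393 peaks of the second series list, 186 (2.91%) had a ranked peak in replicate 1 and none in replicate 2, and the ey peak had the highest signal of these, whose median was 70.1. The missing entry does not show that replicate 2 lacked signal there. Over the 6156 peaks of the second series list with an entry in both replicates, the series signal divided by the sum of the replicate signals had a median of 0.991 (5th to 95th percentile across peaks 0.433 to 1.09). At this ey peak the series signal exceeded that of replicate 1 by 290 and was 1.70 times as high. Over the 186 peaks ranked in replicate 1 only, that ratio had a median of 1.26 (5th to 95th percentile 0.833 to 1.70).

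A second ey region, 82 bp upstream of the same start at 697419 to 697794, had a signal of 72.8 in the second series list. The replicate 1 signal was 47.0 and the replicate 2 signal 19.1. It reached an IDR of 12.9% in the ranked list of the series and so was not in the conservative list. The internal starts of ey, 6.962 and 9.74 kb downstream of the first, had no thresholded peak in any list. The first of these had a ranked signal of 33.3 in the series. The stronger ey region had an IDR of 0.001% in the ranking behind the second series list.

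The window of toy (FBgn0019650, chromosome 4, 989725 to 1007922, plus strand), the Pax gene that acts upstream of ey, had an entry at its start in the ranked list of replicate 2 and none in that of replicate 1. Its conservative peak at 989421 to 989796, 116 bp upstream of its start, had a signal of 110, rank 2999 of 4488. Replicate 2 had a ranked signal of 28.9 there, with an IDR of 14.2%, and no thresholded peak. Replicate 1 had no ranked peak anywhere in the window of 20.198 kb, and its nearest ranked summit lay 2078 bp from the conservative one. The conservative call thus had no thresholded peak in either replicate list. The missing entry of replicate 1 does not show that it lacked signal there either, and with no stated scaling the series signal cannot measure it. The series signal exceeded the ranked signal of replicate 2 by 80.9 and was 3.80 times as high. Over the 17 conservative peaks ranked in replicate 2 only, that ratio had a median of 2.10 (5th to 95th percentile 1.09 to 3.83). Replicate 2 had 16 ranked peaks in the window, with a lowest signal of 2.39, a median of 11.0 and a highest of 31.2.

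The third gene on chromosome 4, sv (FBgn0005561, 1088798 to 1113317, plus strand), encodes the Pax protein that acts in cone and pigment cells, and the bristle lineage. It had no peak in either series list, ranked or thresholded. Replicate 1 had a single peak in the window, of 59.0, at 1112820 to 1113195. This summit lay in the 3' UTR of sv, 14483 bp downstream of its second start, and also inside the neighbour Cals. Replicate 2 had no ranked peak at that place. Its strongest, 37.8, lay 114 bp from the second start of sv, where replicate 1 had no ranked peak. The strongest listed peaks of the replicates thus lay at different places in the gene.

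All 3 of these genes share a chromosome on which ranked peaks were sparse. Chromosome 4 held 346 ranked peaks per Mb in replicate 1 and 303 in replicate 2, where arm 3R held 606 and 743. Of its 80 protein-coding genes, 23.8% had a conservative peak, 32.5% one in the second series list, 45.0% in replicate 1 and 21.2% in replicate 2. The windows of ey, toy and sv held 0.157, 0 and 0.0377 ranked peaks per kb in replicate 1, beside a median of 0.398 for chromosome 4 genes. In replicate 2 they held 0.589, 0.792 and 0.452, beside a median of 0.167. They stood below the chromosome's median in the list of replicate 1 and above it in that of replicate 2, as counts of listed peaks and not of signal.

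**Figure D2:**
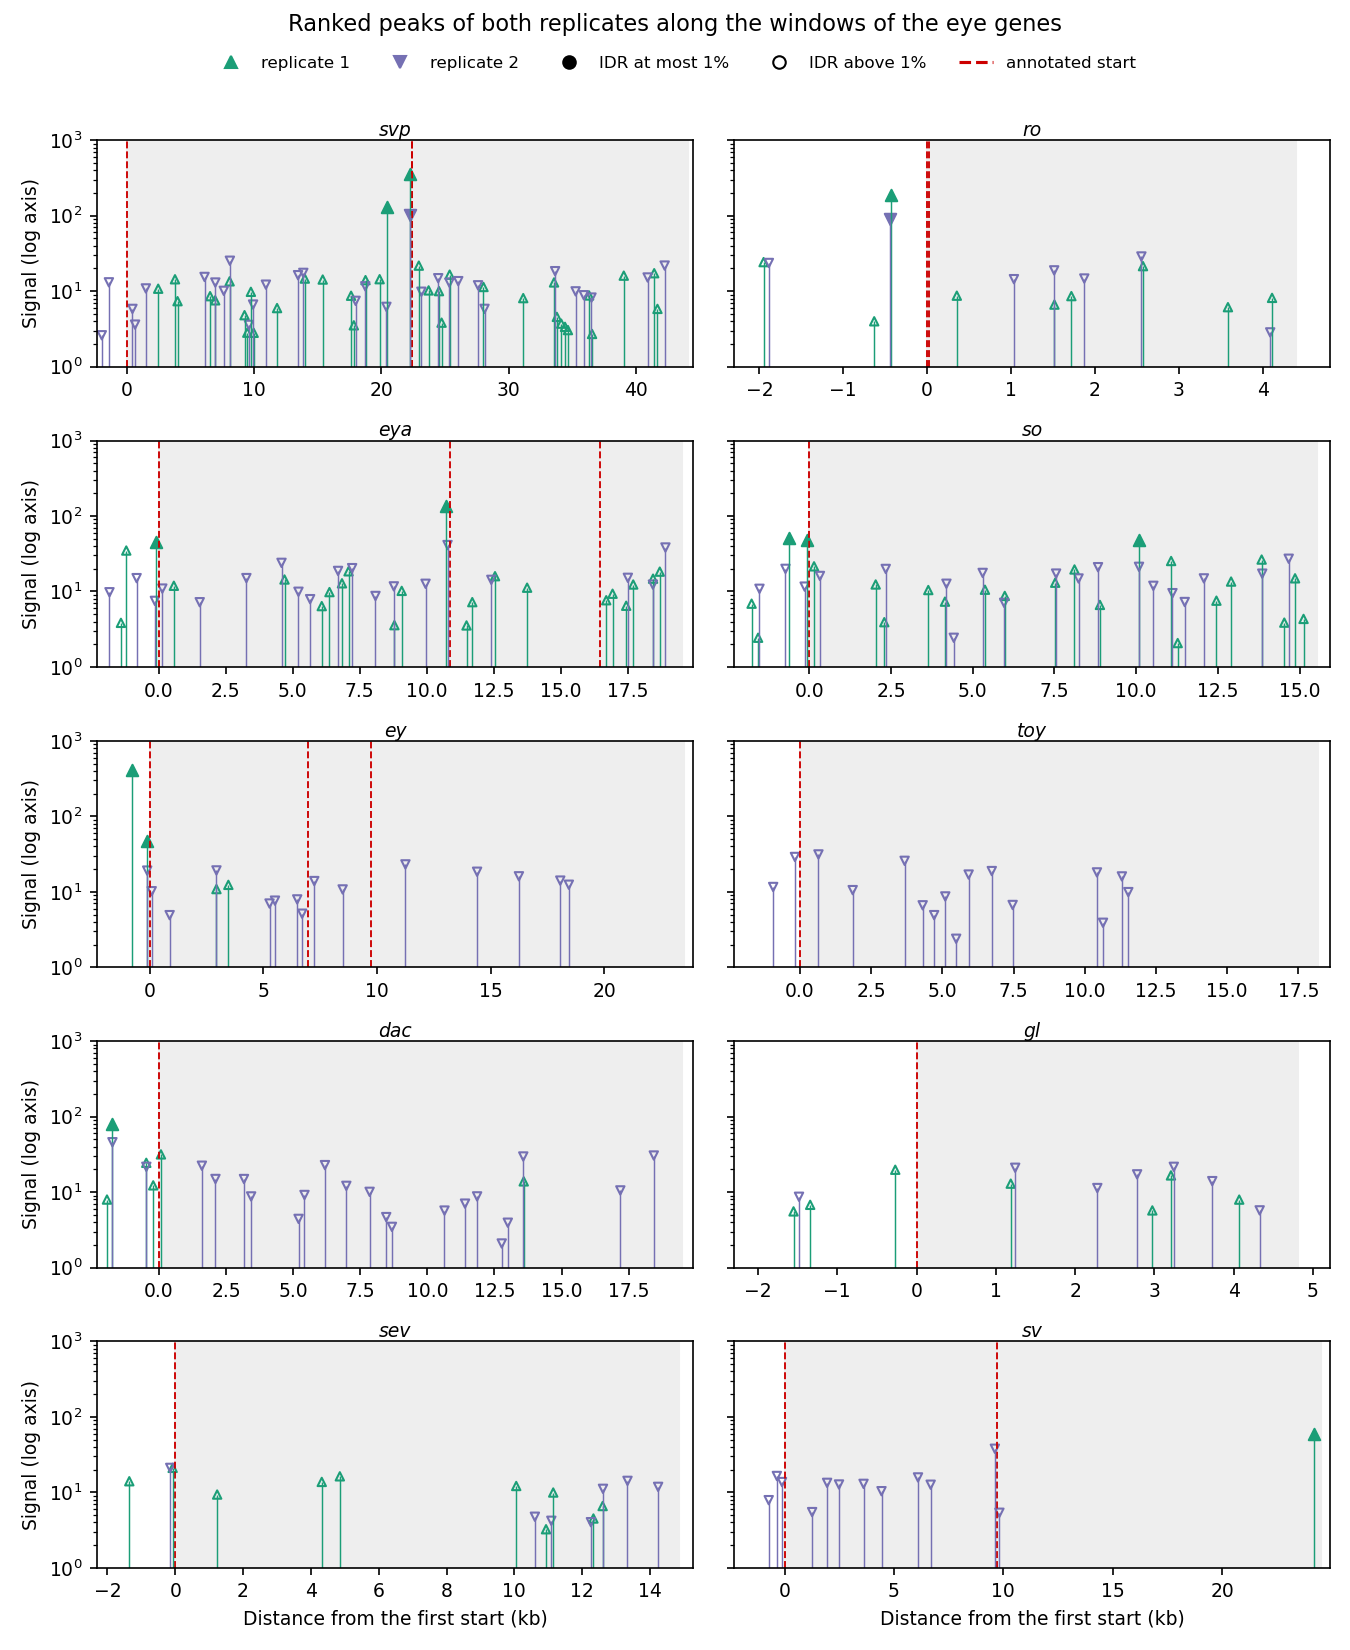
Signal of every ranked peak (y axis, log scale) against distance from the first annotated start in kb (x axis) for each gene, with upward triangles for replicate 1 and downward triangles for replicate 2. Filled symbols have an IDR of at most 1%, dashed lines are annotated starts and grey is the gene body. Filled symbols of both replicates coincide only at svp and ro, and toy has 0 symbols of replicate 1.

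Of the genes that act with and below Eyeless, eya was the one with a conservative peak nearest its own start. Eya is a transcriptional co-activator and phosphatase that binds So. The gene (FBgn0000320, chromosome 2L, 6527447 to 6546976, minus strand) has 3 annotated starts. The conservative peak lay at the second, 10.865 kb into the gene, with its summit in an intron 146 bp upstream of that start (6536069 to 6536444). Its signal was 171, rank 1889 of 4488, with 136 in replicate 1 and 41.2 in replicate 2. In the ranking of replicate 2 on its own the IDR of this peak was 77.0%. The first start had a weaker region, 98 bp upstream, with 58.1 in the second series list, 44.7 in replicate 1 and 10.9 in replicate 2. The third start had no thresholded peak and a ranked signal of 17.0.

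A stronger conservative peak lay just outside the eya window, 285 bp past the gene's end (6527078 to 6527254). Its signal was 337, with 196 in replicate 1 and 146 in replicate 2, and both replicate lists held it above their threshold. The nearest coding start was the third one of eya itself, 3347 bp away. At the other edge of the rule, the summit in the dac window lay 1765 bp upstream of the dac start, inside the 2 kb limit.

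The So gene had 3 regions, all of them outside the conservative list. So is a Six-family homeodomain protein and the DNA-binding partner of Eya. In the window of so (FBgn0003460, chromosome 2R, 7419350 to 7434872, plus strand), a region 714 bp upstream of the only start had 73.2 in the second series list, 51.2 in replicate 1 and 19.9 in replicate 2. A region 61 bp upstream of the start was thresholded in replicate 1 alone, with 48.6, and had a ranked signal of 11.6 in replicate 2. The third region, in an intron of so 10093 bp downstream of the start, had 75.2 in the second series list, 47.8 in replicate 1 and 21.2 in replicate 2. Its summit was 850 bp from the start of CG11145, a gene within the so window, and 552 bp from that of lncRNA:CR44203. In the ranked counterpart of the conservative list its IDR was 4.48%, and that of the region 714 bp upstream was 9.03%.

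The single region in the dac window belonged to a neighbour's start. Dac is a nuclear protein that acts with Eya and So. Its gene (FBgn0005677, chromosome 2L, 16466512 to 16485998, minus strand) had a conservative peak of 128 at 16487575 to 16487950, with 79.2 in replicate 1 and 45.7 in replicate 2. The summit was 385 bp upstream of the start of Nepl8 and 1765 bp upstream of the start of dac. At the dac start itself no thresholded peak was found. The strongest ranked signal within 1 kb of it was 44.1 in the series, 31.6 in replicate 1 and 21.6 in replicate 2.

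Among the genes of photoreceptor and cone cell fate, svp had the highest conservative signal of the 10. It encodes Seven-up, a nuclear receptor that sets the identity of a subset of outer photoreceptors and acts in heart, fat body and neural precursors of the embryo. The gene (FBgn0003651, chromosome 3R, 12258737 to 12302785, plus strand) has 3 annotated starts, the last pair of them 22.373 and 22.415 kb from the first. The conservative peak (12280864 to 12281099) lay 118 bp upstream of the second, in an intron of the longest form. Its signal was 463, rank 414 of 4488, with 362 in replicate 1 and 102 in replicate 2. It passed in all 4 thresholded lists. The first start had no thresholded peak, and its strongest ranked signal in the series was 16.5. The peak thus marked the internal pair of starts and not the first.

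A further svp region lay 1954 bp upstream of the same internal start, in the intron (12278968 to 12279343). It had 146 in the second series list and 132 in replicate 1, while replicate 2 had a ranked signal of 6.21. Its IDR in the ranked counterpart of the conservative list was 74.9%. The log2 ratio of replicate 1 over replicate 2, 4.41, was the largest of the regions with a ranked peak in both.

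The region at ro was shared with the divergent gene T48. The gene ro (FBgn0003267, chromosome 3R, 26876771 to 26881171, minus strand) encodes Rough, a homeodomain protein of photoreceptors. The conservative peak (26881476 to 26881688) lay between the genes, 120 bp upstream of the start of T48 and 443 bp upstream of the nearer start of ro. Its signal was 283, rank 992 of 4488, with 187 in replicate 1 and 89.5 in replicate 2. It was in all 4 thresholded lists, and svp and ro were the only members for which this held.

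The windows of gl and sev held no thresholded peak. The gene gl (FBgn0004618, chromosome 3R, 18367927 to 18372738, minus strand) encodes Glass, a zinc finger protein that drives photoreceptor differentiation in the compound and larval eye. Its strongest ranked peak in the series, 37.3 with an IDR of 26.3%, lay nearer to the start of Nup43. Within 1 kb of the gl start replicate 1 had 19.8 and replicate 2 had no ranked peak. The gene sev (FBgn0003366, chromosome X, 11071441 to 11086299, minus strand) encodes the receptor tyrosine kinase Sevenless, which selects one photoreceptor of each unit. A ranked peak of 50.3 with an IDR of 10.8% lay 71 bp from its start, with 21.1 in each replicate at 75 and 147 bp. The strongest replicate 1 signal was lower at gl and sev than at the other members with a ranked peak there. For comparison, the ranked list of replicate 1 has a median of 11.9 and that of replicate 2 a median of 12.1.

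**Figure D3:**
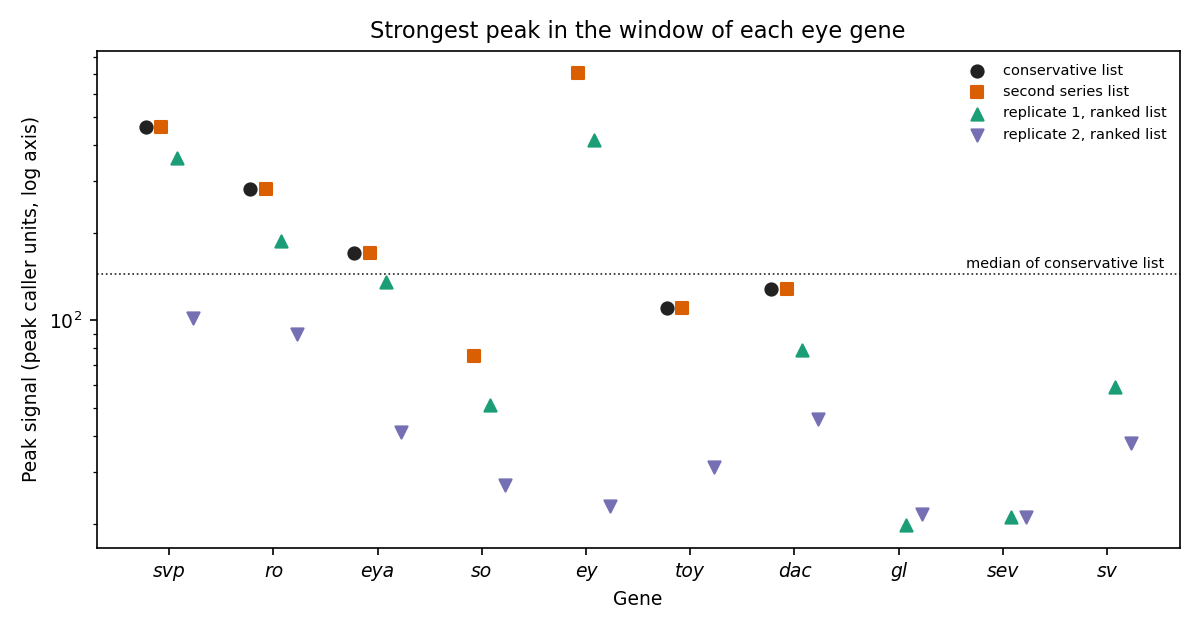
Signal of the strongest peak in each window (y axis, log scale) for each gene (x axis) in the conservative list, the second series list and the ranked list of each replicate, with the median of the conservative list, 144, as a dotted line. The svp, ro and eya peaks lie above the line, those of toy and dac below it, and the ey peak of 705 has no conservative counterpart.

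Replicate 1 gave the higher signal at each of the 10 regions that both libraries ranked. The log2 ratio of replicate 1 over replicate 2 had a median of 1.54 and ran from 0.79 at dac to 4.41 at the svp region 1954 bp upstream of its internal start. Over the 6156 peaks of the second series list with both values, the median was 0.75 ± 0.70 (SD across peaks), and 90.0% were higher in replicate 1. The 4 conservative regions with both values had a median of 1.39, beside 0.68 ± 0.50 over 4453 conservative peaks. The log2 ratios there were 1.83 at svp, 1.06 at ro, 1.72 at eya and 0.79 at dac, so that of svp and eya lay more than 1 SD above the median of the list. The regions include those called in replicate 1 alone, which were chosen on the same signal, and no test was made. With 2 libraries the difference between them cannot be told apart from depth or scaling.

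**Figure D4:**
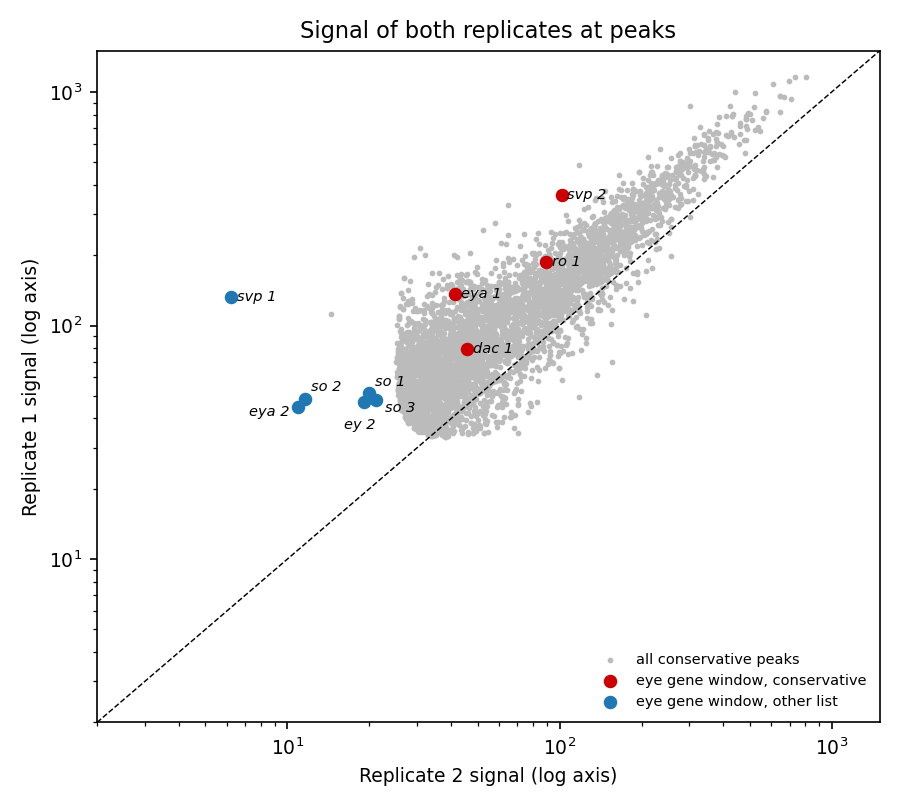
Replicate 1 signal (y axis, log scale) against replicate 2 signal (x axis, log scale) at all conservative peaks in grey and at the regions in the eye gene windows, numbered along the chromosome, in red where conservative and blue otherwise. The dashed line marks equal signal, and all 10 regions with both values lie above it.

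The 10 genes have 18 annotated starts. Of these, 6 had a conservative summit within 1 kb, beside 31.6% of 19630 coding starts. These 6 come from 4 peaks, since the starts of ro and the last pair of svp lie close together. In the second series list 9 had one, beside 39.1%. Ranked peaks without a threshold were found near 12 starts in replicate 1 and 15 in replicate 2, beside 80.4% and 87.5% of all coding starts. The gene windows held a median of 0.687 ranked peaks per kb in replicate 1, beside 0.995 for all genes, and 0.837 in replicate 2, beside 0.961. These medians were not matched for window length, whose median was 20.8 kb for the members and 4.16 kb for all genes. In addition, 3 of the members lie on chromosome 4, where ranked peaks were sparse.

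Motifs were unevenly spread over the regions. CGATA, on either strand within 50 bp of the summit, was found in 5 of 13 regions (38.5%), beside 47.0% of conservative and 37.9% of second series summits. The 5 were both ey regions, the toy region, the dac region next to Nepl8 and the so region next to CG11145. The summits of svp, ro and eya, the members with the highest conservative signals, held none, whereas 66.8% of the stronger 50% of conservative summits did. In the ey window printed above, the marked letters are a palindrome that counts on both strands and a further single copy. ACCACA or ACCGCA, the core of the Runx consensus, was found in 1 of 13 regions, the so region next to CG11145. It was found at 8.73% of conservative and 9.06% of second series summits. GAGAG, part of the sequence of the GAGA factor, was also searched on both strands. It was found in 5 of 13 regions, beside 13.5% of conservative and 15.8% of second series summits. It was in both svp regions, the eya region at the first start, the ey region nearest the start and the toy region.

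The promoters of the 10 genes, from 250 bp before to 50 bp after each start, held CGATA at 5 of 18 starts (27.8%), beside 45.7% of all coding starts. ACCACA or ACCGCA was at 3 of 18 (16.7% beside 20.8%) and GAGAG at 12 of 18 (66.7% beside 33.1%). The starts of ro and the last pair of svp overlap in these windows and are not independent. The sev promoter held CGATA 4 times without a thresholded peak, and that of gl once. A match says only that the letters are present, and no test of these counts was made.

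Other genes of eye development were counted in the same way, in windows from 3.223 kb at ato to 134.008 kb at hth. The lists were not matched for window length, and their shares were not tested. Of all coding genes, 37.4% had a conservative peak and 29.5% had one in replicate 2 alone. Among genes with windows at least as long as that of ro, the shares were 53.0% and 40.9%. Of 11 further retinal determination genes (eyg, toe, Optix, hth, tsh, tio, dan, danr, ato, Lim1 and chn), 7 had a conservative peak, each with one nearest its own start. In replicate 2 alone 6 of the 11 had a peak, where 2 of the 10 members did. Of 15 genes of photoreceptor and cone cell differentiation (lz, pros, pnt, aop, ttk, boss, B-H1, B-H2, ct, salm, salr, oc, Pph13, sens and sca), 7 had a conservative peak and 2 had one in replicate 2 alone. The strongest were toe at 261 (191 in replicate 1 and 58.5 in replicate 2), eyg at 256 (195 and 64.9), chn at 237 (149 and 91.0), tio at 231 (154 and 74.3), pnt at 163 (115 and 46.2) and ct at 159 (125 and 34.1). Their own start was the nearest coding start but not always close, at 1945 bp for toe, 5097 bp for ct and 5355 bp for tio. The Pax genes eyg, which promotes growth of the eye disc, and toe, its relative, were thus above all members but svp and ro in the conservative list. The same held for chn and tio. The gene lz, which encodes the Runt domain protein Lozenge, had no conservative peak. Its second series peak of 82.2 was nearest to the start of its neighbour c11.1.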

How the data were processed

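ChIP-seq peak lists of 2 samples, both of 1 group, were analysed on dm6, the assembly per the labels. The lists hold the authors' peak signal, deposited with no stated scaling, and ranked lists also hold the authors' −log10 of the IDR, converted here to a percent. The sources used here do not give the aligner or caller, and no control library was analysed. A further 4 columns of replicate values in the ranked series lists carry no sample name and were not used. Replicate signals were instead those of the strongest ranked peak of each replicate's own list that overlapped the peak by at least 1 bp, which departs from the plan. Starts and windows came from Ensembl BDGP6 and sequence from RefSeq. Counting and motif search were checked on simulated data. The members and gene lists were chosen with earlier results of these data known. Named were all members, the neighbours nearest to their peaks, and the other eye genes with the strongest conservative peaks that had their own start as the nearest one, at whatever distance, at most 6; CG2076, Actbeta, ms(3)K81, CG5500 and bt were named after their values were seen, and GAGAG and the comparison of series signal with the sum of the replicates were added to the plan. No test across genes was made, so values carry no p. Precision is limited by 2 replicates, and read depth is unknown. Python 3.11.15, numpy 2.4.6 and pandas 2.3.3 were used.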

Additional observations from a re-analysis of the deposited data

How the results depend on the processing

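Against 5 members with a conservative peak, there were 3 with the stronger 50% of peaks and 2 in the gene body without upstream sequence. A window from 5 kb upstream to 2 kb past the end gave 8. The share of all coding genes moved the same way, from 37.4% to 23.2%, 12.8% and 52.0%. The wider window added ey, sev and sv through peaks nearest to bt, CG2076 (411, 4038 bp upstream of sev) and Actbeta (510, 3910 bp upstream of sv), and further peaks at ro nearest to ms(3)K81 and CG5500. Leaving out a replicate gave 2 to 7 members, beside 29.5% to 43.7% of all coding genes. Against 5 peaks in the windows, there were 3 with the stronger 50%, 2 in the gene body, 11 with the wider window and also 11 with the second series list, and 2 to 12 without a replicate. Members with a peak nearest their own start, 3 in all, numbered 5 with the second series list and 1 to 4 without a replicate. Without replicate 1, only svp and ro kept a peak. Other settings stayed within 1.5 times: 4 members with a summit within 1 kb of a start, 5 by interval overlap, and 3 own-start members with noncoding starts. Of all coding genes, 33.6% had a summit within 1 kb of a start and 38.8% a peak by interval overlap. With motif windows of 100 bp either side, CGATA was in 6 regions and the Runx core in 2. The alternative source of replicate signals was not run. No paired analysis was possible because there is 1 group. These counts rest on 2 libraries of unknown depth.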
